A study of Homo sapiens with 66 samples.

Results

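Halofuginone (HFG) was set against halofuginol in L363-CFZr cells at 6 h, in 6 of the 66 libraries of the study, 3 of each compound. The members are the libraries whose labels give that line, that time and one of these compounds. L363-CFZr is a subline of the multiple myeloma cell line L363 that is resistant to carfilzomib (CFZ), a proteasome inhibitor. Both groups received 1 µM of compound for 6 h, and the labels name no other agent given to these cells and no genetic change. The subline stands for 1 resistant line, and how its resistance arose is not given in the sources used here. The study's methods give biological triplicates as the general rule for its experiments. Neither they nor the labels say whether the 3 replicates of a group were separate cultures, so the p-values measure the spread between these samples. Both groups carry sample numbers of one set of 22 L363-CFZr libraries, whereas the 6 h DMSO libraries of this line carry numbers of another set, so that treatment and set cannot be told apart in a comparison with DMSO at 6 h. The direct comparison of the compounds does not cross sets.

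HFG is a derivative of the plant alkaloid febrifugine. It occupies the proline and tRNA pockets of prolyl-tRNA synthetase, the activity of the bifunctional enzyme GluProRS (gene EPRS1) that loads proline onto its tRNA. Halofuginol is the analogue of HFG in which the ketone is reduced to a secondary alcohol, and the rest of the molecule is shared. When a tRNA is left without its amino acid, the kinase GCN2 phosphorylates the initiation factor eIF2, general translation falls, and translation of the transcription factor ATF4 rises. ATF4 then raises transcription of genes for amino acid synthesis, uptake and tRNA charging. This programme is the amino acid arm of the integrated stress response (ISR), and in plasma cells, which export large amounts of protein, it meets the unfolded protein response.

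ATF4 and its C/EBP partners bind a composite element, and the core letters TGATGNAA were searched on both strands of RefSeq promoter windows (GRCh38.p14, 250 bases before to 50 after each annotated start). Of 27305 gene symbols with a window, 1217 (4.46%) held the letters. Among the ISR regulators listed for this work 6 of 21 with a window held them (28.57%), and the same was true of 3 of 14 genes of amino acid and one-carbon synthesis, 5 of 17 amino acid transporters and 7 of 16 cytosolic aminoacyl-tRNA synthetases. Stretches of 7 genes whose levels differed between the compounds are shown, written 5′ to 3′ on the strand of the gene, with the match in capitals, which reads TTNCATCA where the element lies on the other strand.

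ASNS, chr7:97872458-97872487, minus strand: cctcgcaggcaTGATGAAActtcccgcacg
CEBPG, chr19:33374060-33374089, plus strand: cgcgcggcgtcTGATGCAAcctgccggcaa
SLC1A5, chr19:46784893-46784922, minus strand: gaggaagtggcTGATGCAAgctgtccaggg
ATF3, chr1:212565205-212565234, plus strand: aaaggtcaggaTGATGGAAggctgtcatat
CHAC1, chr15:40953251-40953280, plus strand: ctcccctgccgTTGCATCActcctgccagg
GARS1, chr7:30594834-30594863, plus strand: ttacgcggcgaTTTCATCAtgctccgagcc
AARS1, chr16:70289675-70289704, minus strand: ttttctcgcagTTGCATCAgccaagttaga

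A match is a run of letters and says nothing on occupancy. For TRIB3, PSAT1 and SESN2 no match was listed that lay, with 11 bases on either side, in the 250 bases before the start. Matches nearer to the start, past it or at the window edge were not listed by gene.

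HFG and halofuginol, the 1 pair of compounds compared, gave different transcriptomes at the same dose and time. Of 10581 genes tested, 5000 (47.3%) differed at an edgeR adjusted p under 0.05, 2444 (23.1%) higher and 2556 (24.2%) lower under HFG. Most of the differences were small, and 77.5% of the called genes differed by less than 1.5-fold. At least 2-fold differences were found in 294 genes (2.78%), of which 243 were higher and 51 lower under HFG, so that the large differences lay on the side of HFG. The 3 libraries of one compound lay wholly above or below those of the other in 5685 genes (53.7%). Among the called genes this held for 4714 (94.3%), so a lack of overlap adds little to a call. The median log2 fold change over all genes was 0.008, and the median standard error was 0.098.

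**Figure D1:**
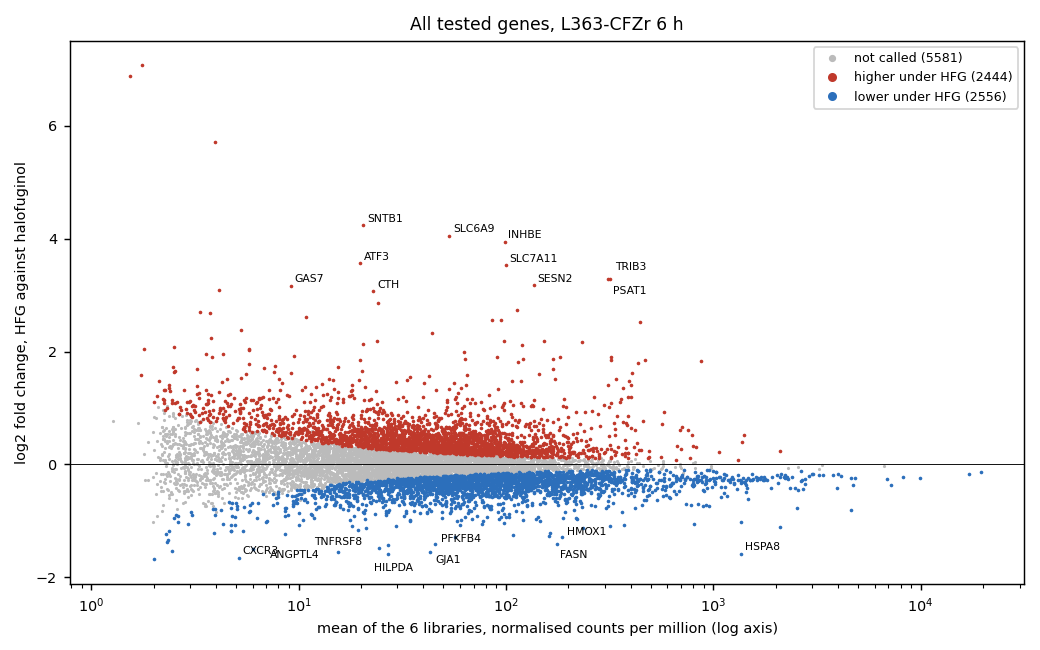
Each point is 1 of 10581 genes, with its mean level over the 6 libraries in normalised counts (CPM) on a log axis and its log2 fold change of HFG against halofuginol. Labels mark genes among the 10 largest rises and 10 largest falls chosen by the rule in the methods. The 3 unlabelled points at the top left are JDP2, ESRP1 and BCAT1, which had 0, 0 and 2 counts in all over the halofuginol libraries.

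The HFG libraries held 4310954, 2850270 and 4437940 counts and the halofuginol libraries 6596543, 6103560 and 3871677. Libraries of one compound correlated at 0.9857 to 0.9917 in log2 CPM and libraries of different compounds at 0.9647 to 0.9698, and no library stood apart from its group. CPM are counts of a gene brought to a common library total after scaling for library composition, and the scaling factors were 1.034 to 1.037 for HFG and 0.962 to 0.968 for halofuginol. Across genes, log2 fold changes were lower where transcript GC content was higher (r = -0.211), and a fit with a GC offset called 4688 genes, 3969 of them among the 5000. L363-CFZr cells carried the 9 plasma cell markers checked, at 2716 to 2782 summed CPM under HFG and 3478 to 3565 under halofuginol, with 1 higher and 8 lower, and the part of this in other results was not tested. Markers of mature B cells, T cells, monocytes, stromal, epithelial and erythroid cells reached at most 1.80 summed CPM, and MS4A1, CD3D, CD3E, CD3G, CSF1R and S100A8 were at 0 in all 6 libraries. In bulk RNA, fewer cells of a state and less RNA per cell cannot be told apart.

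The regulators of the integrated stress response had the highest median of the 29 gene lists examined. Of 21 tested members, 19 were higher and 1 lower under HFG, beside 23.1% and 24.2% of all genes, and the median log2 fold change was 1.82. TRIB3, a pseudokinase that ATF4 induces and that feeds back on it (chromosome 20, 362835 to 397559, plus strand, GRCh38, GENCODE 44), was at 604, 558 and 559 CPM in the HFG libraries and at 58.8, 59.2 and 58.6 CPM in the halofuginol libraries (log2 fold change 3.29 ± 0.051, adjusted p = 1.91e-28, with the SE after the ± sign for every fold change). The HFG libraries lay about 9.75-fold above those of halofuginol, whose 3 values were almost the same. SESN2, which restrains mTORC1 when amino acids are scarce, stood at 258, 241 and 239.9 CPM under HFG and 30.2, 25.6 and 25 CPM under halofuginol (log2 fold change 3.18 ± 0.068, adjusted p = 3.07e-25). For INHBE, a secreted TGF-beta family ligand, the values were 195, 179 and 183 CPM and 12.9, 11 and 12.4 CPM (log2 fold change 3.94 ± 0.083, adjusted p = 1.95e-25). In none of these genes did the groups overlap, which for INHBE the rule that named it required.

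ATF4 mRNA itself differed less than TRIB3, SESN2 and INHBE. It was at 769, 745 and 754 CPM under HFG and at 403, 390.2 and 399.9 CPM under halofuginol, a 1.9-fold difference with no overlap (log2 fold change 0.93 ± 0.035, adjusted p = 4.59e-19). The partner CEBPG rose 3.52-fold (178 ± 5.1 CPM under HFG and 49.9 ± 3.38 CPM under halofuginol, mean ± SD, n = 3) and CEBPB rose 5.05-fold (73.1 ± 1.43 CPM under HFG and 14.6 ± 1.02 CPM under halofuginol). DDIT3, the transcription factor CHOP of terminal stress, rose from 26.7, 23.6 and 25 to 106, 97.7 and 96.5 CPM (log2 fold change 1.99 ± 0.082, adjusted p = 2.59e-18), although 23.52% of the 31-mers of its transcripts also occur in transcripts of other genes, so the split of its reads is less certain. ATF3, a stress-induced repressor, rose 11.8-fold from a low level of 3.77, 1.53 and 4.3 CPM to 37.2, 35.3 and 37.1 CPM. CHAC1, which degrades glutathione, stood at 42.1, 44.4 and 40.8 CPM under HFG and 6.6, 4.41 and 6.72 CPM under halofuginol (log2 fold change 2.85 ± 0.14, adjusted p = 3.31e-16). The eIF2 phosphatase subunit PPP1R15A rose 2.13-fold and EIF4EBP1, an inhibitor of cap-dependent initiation, 3.66-fold. DDIT4, another brake on mTORC1, differed less (log2 fold change 0.33 ± 0.045, adjusted p = 7.00e-07), a call lost in the fit of all L363-CFZr groups (adjusted p = 0.0752).

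JDP2, a dimer partner of AP-1 proteins, had 43 counts over the HFG libraries and 0 over the halofuginol libraries, which is at least 19.09-fold higher with 3 counts over the group as the floor. With JDP2 at that bound the median of the list stayed at 1.82. ERO1A, an oxidase of the endoplasmic reticulum, was the 1 member that fell (log2 fold change -0.43 ± 0.054, adjusted p = 1.10e-07). The kinases and regulators of eIF2 showed no such shift of the median, which was 0.018. Of 16, 6 were higher and 4 lower. Beside 23.1% and 24.2% of all genes, the rises lay above that share and the falls near it. EIF2S2, the beta subunit of eIF2, had the largest rise of the 16 at 2.03-fold (log2 fold change 1.02 ± 0.041, adjusted p = 2.01e-18). Larger fits were made of all 30 L363-CFZr libraries or of the 22 of the same set, with spread, filter and scaling all set anew. They called 4 rises and 0 falls in this list. Over all genes the first called 1300 higher and 1438 lower of 11100, and the second 1365 higher and 1253 lower of 11567. List counts from these fits given below stand beside those totals.

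**Figure D2:**
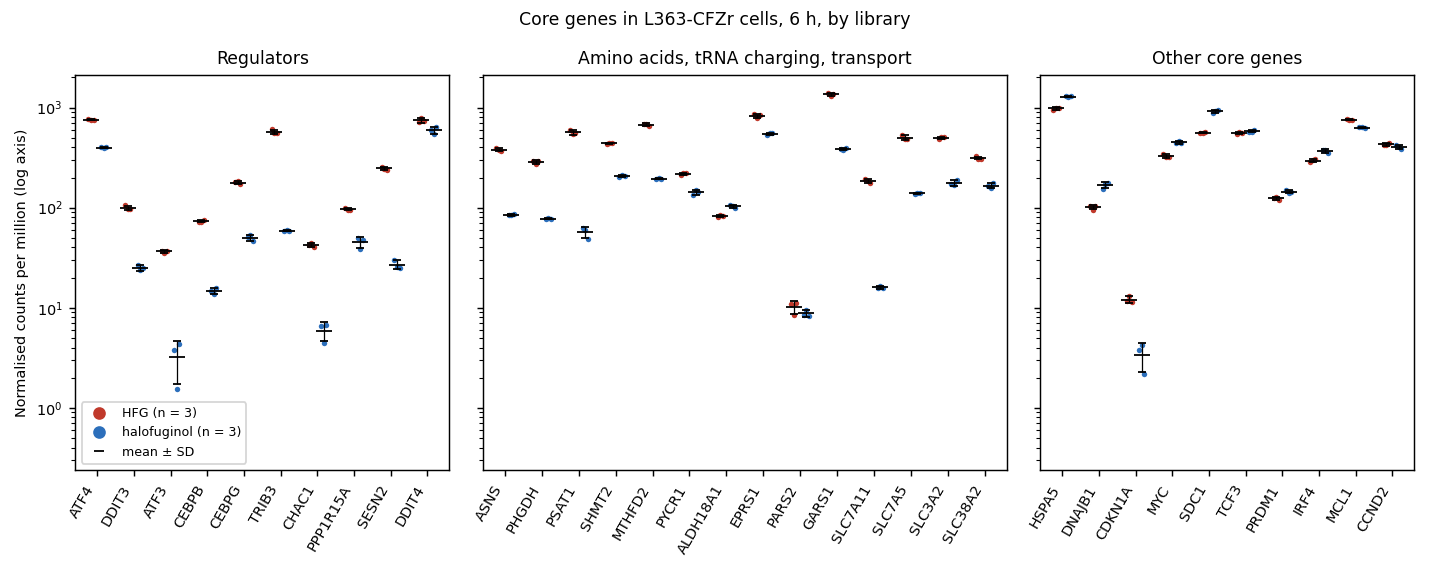
The 34 core genes in the 6 libraries, in normalised counts (CPM) on a log axis, with HFG in red and halofuginol in blue (3 libraries each) and the mean with its SD in black. In 24 genes the HFG level was called higher and in 7 lower, and the widest gaps were those of ATF3, SLC7A11, TRIB3, PSAT1 and SESN2.

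Enzymes that make serine, glycine, asparagine and one-carbon units were higher under HFG in 13 of 18 tested genes and lower in 2, with a median log2 fold change of 1.12. PSAT1, the aminotransferase of serine synthesis, was at 602, 538 and 551 CPM under HFG against 62.9, 59.7 and 48.9 CPM under halofuginol (log2 fold change 3.28 ± 0.060, adjusted p = 7.03e-27). ASNS, asparagine synthetase, was at 394, 379 and 364 CPM against 83.7, 84.4 and 86.6 CPM (log2 fold change 2.16 ± 0.049, adjusted p = 1.15e-24). PHGDH, the first enzyme of serine synthesis, rose 3.72-fold (287 ± 12.8 CPM under HFG and 77.3 ± 0.896 CPM under halofuginol). The groups were far apart in all 3 genes. CTH, which makes cysteine by transsulphuration, rose 8.39-fold (40.9 ± 2.39 CPM under HFG and 4.96 ± 0.759 CPM under halofuginol), and the mitochondrial folate enzymes MTHFD2 and SHMT2 rose 3.46-fold and 2.12-fold. For MTHFD2, 21.9% of the 31-mers are shared with other genes. The cytosolic counterpart MTHFD1 went the other way (log2 fold change -0.54 ± 0.059, adjusted p = 9.58e-09), as did GOT2 (log2 fold change -0.21 ± 0.051, adjusted p = 0.00124). BCAT1, which transaminates branched-chain amino acids, had 96 counts over the HFG libraries and 2 over those of halofuginol, a ratio of 63.9 with a 95% counting interval of 17.23 to 535.6.

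Genes of proline metabolism did not move with that group. Of 10 tested, 1 was higher and 6 were lower, with a median of -0.27. PYCR1, the last enzyme of proline synthesis in mitochondria, rose 1.52-fold (217 ± 6.28 CPM under HFG and 142 ± 7.58 CPM under halofuginol, log2 fold change 0.61 ± 0.051, adjusted p = 4.86e-11), with 11.13% of its 31-mers shared with other genes. ALDH18A1, which catalyses the first steps from glutamate, was at 81.4, 83.8 and 82.3 CPM under HFG and 105, 104 and 99.2 CPM under halofuginol (log2 fold change -0.33 ± 0.061, adjusted p = 5.87e-05), and OAT, which feeds in ornithine, fell 1.57-fold (log2 fold change -0.65 ± 0.041, adjusted p = 6.96e-14). EPRS1, the gene of GluProRS (chromosome 1, 219968600 to 220046530, minus strand), stood at 856, 788 and 844 CPM against 535, 551 and 557 CPM, a 1.52-fold difference (log2 fold change 0.60 ± 0.036, adjusted p = 3.20e-14). PARS2, the separate prolyl-tRNA synthetase of mitochondria, was at 11, 8.48 and 11.1 CPM and 8.49, 9.5 and 8.34 CPM, the groups overlapped, and the 95% interval of its log2 fold change ran from -0.15 to 0.62.

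Amino acid transporters rose in 11 of 16 tested genes and fell in 2, with a median of 1.07. SLC6A9, a glycine transporter, was at 109, 102 and 91.5 CPM under HFG and 7.39, 4.92 and 5.65 CPM under halofuginol (log2 fold change 4.05 ± 0.12, adjusted p = 9.61e-22). SLC7A11, the cystine carrier of system xc-, was at 191, 184 and 177 CPM and 15.6, 16.4 and 15.9 CPM (log2 fold change 3.53 ± 0.077, adjusted p = 3.68e-25). Both genes were more than 10-fold apart. SLC1A5, a carrier of neutral amino acids with the element printed above, rose 3.61-fold (730.3 ± 7.39 CPM under HFG and 202 ± 3.32 CPM under halofuginol). SLC7A5 and SLC3A2, the light and heavy chains of the leucine exchanger LAT1, rose 3.61-fold and 2.86-fold, and SLC38A2 rose 1.91-fold. SLC38A5 (log2 fold change -0.35 ± 0.053, adjusted p = 2.52e-06) and SLC7A6 (log2 fold change -0.30 ± 0.082, adjusted p = 0.00361) fell, the latter with 43.4% of its 31-mers shared with other genes and the call lost in the fit of all L363-CFZr groups (adjusted p = 0.247).

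Among cytosolic aminoacyl-tRNA synthetases 13 of 21 were higher and 5 lower, with a median of 0.60. Beside 23.1% and 24.2% of all genes, the rises lay above that share and the falls near it. GARS1, the glycyl enzyme, was at 1409, 1310.3 and 1373 CPM under HFG and 384, 376 and 391 CPM under halofuginol (log2 fold change 1.83 ± 0.036, adjusted p = 3.75e-26). AARS1, the alanyl enzyme, rose 2.66-fold (585 ± 28 CPM under HFG and 221 ± 4.78 CPM under halofuginol). On the other side were FARSA, a subunit of the phenylalanyl enzyme (log2 fold change -0.59 ± 0.051, adjusted p = 9.97e-11), and KARS1, the lysyl enzyme (log2 fold change -0.29 ± 0.044, adjusted p = 3.07e-06). Of the 17 mitochondrial synthetases 0 were higher and 7 lower (2 lower by DESeq2 and 3 in either larger fit), and IARS2 (log2 fold change -0.29 ± 0.040, adjusted p = 6.48e-07) and MARS2 (log2 fold change -0.60 ± 0.086, adjusted p = 1.30e-06) had the smallest adjusted p.

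**Figure D3:**
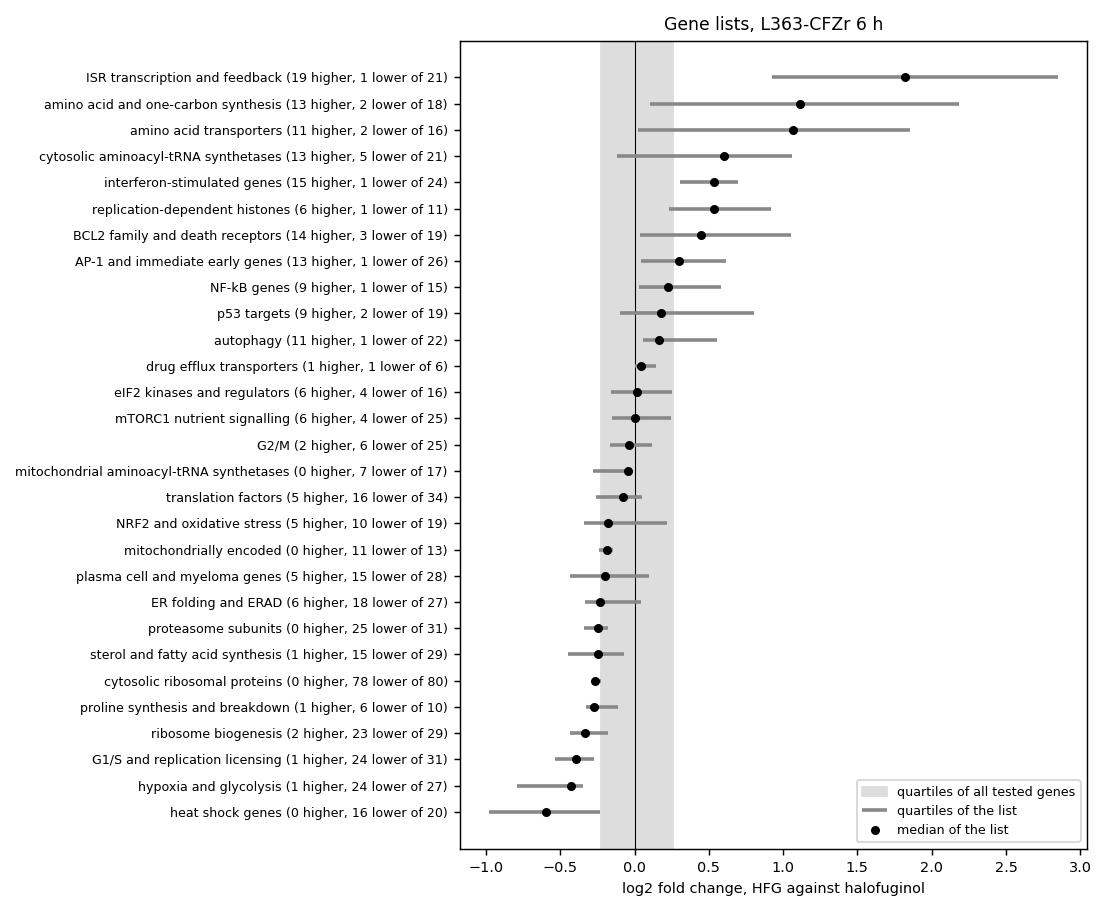
Median log2 fold change of HFG against halofuginol for the tested members of 29 gene lists (black points), with the quartiles of each list (grey lines) and of all 10581 tested genes (grey band, -0.226 to 0.259). Counts of members called higher and lower stand beside each name. ISR regulators, amino acid synthesis and amino acid transporters lie farthest to the right, and heat shock genes and glycolysis farthest to the left.

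Heat shock genes had the lowest median of the 29 lists at -0.59, with 0 of 20 higher and 16 lower. HSPA8, the constitutive cytosolic HSP70 chaperone, was at 659, 698 and 697 CPM under HFG and 1969, 2177 and 1995 CPM under halofuginol (log2 fold change -1.58 ± 0.037, adjusted p = 2.40e-24). DNAJA1, one of its co-chaperones, fell 2.4-fold (94.5 ± 6.16 CPM under HFG and 228 ± 10.6 CPM under halofuginol) and DNAJB1 fell 1.64-fold (101 ± 4.91 CPM under HFG and 168 ± 11.9 CPM under halofuginol). The groups were separate in all 3 genes, which for HSPA8 the rule that named it required. Among 27 genes of folding and degradation in the endoplasmic reticulum 6 were higher and 18 lower. Beside 23.1% and 24.2% of all genes, the rises lay near that share and the falls above it. HSPA5, the chaperone BiP, was at 950.5, 999 and 990.3 CPM against 1290.1, 1265 and 1308 CPM (log2 fold change -0.39 ± 0.032, adjusted p = 2.64e-11) and CALR, calreticulin, fell 1.48-fold, while ERN1, the stress sensor IRE1, rose 2.24-fold (log2 fold change 1.17 ± 0.053, adjusted p = 4.40e-17) and SEL1L of the degradation complex rose 1.55-fold. In the fits of all 30 L363-CFZr libraries and of the 22 of the same set, 9 and 5 falls were called in this list in place of 18. Over all genes those fits called 1438 of 11100 and 1253 of 11567 lower.

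Genes of hypoxia and glycolysis were lower under HFG in 24 of 27 and higher in 1, with a median of -0.43. HILPDA, a lipid droplet protein induced by HIF, was at 10.3, 17 and 14 CPM under HFG and 42.5, 39 and 39.5 CPM under halofuginol (log2 fold change -1.60 ± 0.13, adjusted p = 2.12e-11). PGK1, phosphoglycerate kinase, was at 873, 917 and 909 CPM against 1792, 1861 and 1837 CPM (log2 fold change -1.03 ± 0.032, adjusted p = 2.18e-21), and PKM, pyruvate kinase, fell 1.71-fold. The exception was VEGFA, the angiogenic growth factor, which rose 1.6-fold (348 ± 14.6 CPM under HFG and 219.6 ± 13 CPM under halofuginol). Sterol and fatty acid genes fell in 15 of 29 and rose in 1, led by FASN, fatty acid synthase, at 95.9, 97 and 96.7 CPM against 258, 267 and 242 CPM (log2 fold change -1.41 ± 0.053, adjusted p = 2.71e-19). In the list of NRF2 and oxidative stress genes 5 of 19 were higher and 10 lower. Beside 23.1% and 24.2% of all genes, the rises lay near that share and the falls above it. Either larger fit called 4 falls, beside 1438 of 11100 and 1253 of 11567 over all genes. HMOX1, haem oxygenase, fell 2.44-fold (log2 fold change -1.29 ± 0.050, adjusted p = 5.82e-19) and PRDX1 fell 2.09-fold, while FTH1, the ferritin heavy chain, rose 1.38-fold. FTH1 and PRDX1 share 54.48% and 30.68% of their 31-mers with other genes.

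The other large falls were in genes outside these lists. CXCR3, a chemokine receptor, was at 2.69, 1.02 and 3.27 CPM under HFG and 6.6, 8.99 and 8.34 CPM under halofuginol (log2 fold change -1.66 ± 0.30, adjusted p = 3.14e-05). GJA1, a gap junction protein, was at 19.7, 25.4 and 21.4 CPM against 59, 71.4 and 61.3 CPM (log2 fold change -1.55 ± 0.11, adjusted p = 4.25e-13) and TNFRSF8, the CD30 receptor, fell 2.8-fold. These genes were chosen by the rule for the largest falls, which required that the groups not overlap. Among the largest rises outside the lists were SNTB1, a syntrophin, at 40.1, 34.6 and 42.1 CPM against 1.26, 2.88 and 2.15 CPM (log2 fold change 4.23 ± 0.19, adjusted p = 2.41e-17), and GAS7, an actin regulator, at 15, 16.3 and 18.1 CPM against 1.26, 2.2 and 2.15 CPM.

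Genes of the translation machinery were lower under HFG in many members and by little. Of 80 cytosolic ribosomal proteins 0 were higher and 78 lower, with a median of -0.26, and RPS15 was at 912, 992 and 907 CPM against 1304, 1313 and 1364 CPM (log2 fold change -0.50 ± 0.035, adjusted p = 7.53e-13). Their summed share of the counts was 10.5 to 10.9% under HFG and 11.8 to 12% under halofuginol. This list kept its median (-0.29 and -0.28) and lost every call in the fits of all 30 and of the 22 same-set L363-CFZr libraries, with adjusted p = 0.0643 and 0.113 for RPS15. Ribosome biogenesis genes were lower in 23 of 29 and higher in 2, with NCL, nucleolin, 1.33-fold lower (log2 fold change -0.42 ± 0.032, adjusted p = 1.14e-11), and the larger fits called 17 and 12 falls. Translation factors were lower in 16 of 34 and higher in 5, and proteasome subunits, whose catalytic sites carfilzomib blocks, were lower in 25 of 31 and higher in 0 with a median of -0.25. The larger fits called 9 and 7 falls among proteasome subunits and 7 and 3 among translation factors. Over all genes they called 1438 of 11100 and 1253 of 11567 lower. PSMC3, an ATPase of the 19S particle, was at 146, 141 and 158 CPM against 212, 224 and 215 CPM (log2 fold change -0.54 ± 0.050, adjusted p = 5.46e-10). The 13 mitochondrially encoded genes were lower in 11 and higher in 0, at 6.14 to 6.72% of the counts under HFG and 6.74 to 7.29% under halofuginol, with 5 lower in either larger fit.

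Genes of G1/S and replication licensing were lower under HFG in 24 of 31 and higher in 1, with a median of -0.39. PCNA, the sliding clamp of DNA replication, was at 79.1, 73.9 and 68.6 CPM against 106, 114 and 109.7 CPM (log2 fold change -0.57 ± 0.066, adjusted p = 2.87e-08) and MCM4, a helicase subunit, fell 1.59-fold, whereas MCM6 of the same helicase was the 1 rise (212 ± 6.59 CPM under HFG and 125 ± 5.76 CPM under halofuginol). G2/M genes gave 2 higher and 6 lower of 25 with a median of -0.037. The rises lay below the 23.1% and the falls near the 24.2% of all genes. PTTG1, securin, was 1.7-fold lower. CCND2, the D-type cyclin, was at 422, 425 and 448 CPM and 427, 399.8 and 385 CPM, and the interval of its log2 fold change ran from 0.008 to 0.18 (adjusted p = 0.068). Without the halofuginol replicate 1 it was called (log2 fold change 0.134, adjusted p = 0.0174). Of 11 tested replication-dependent histones 6 were higher and 1 lower, as counted in libraries of polyadenylated RNA.

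Genes of cell death receptors and the BCL2 family were higher under HFG in 14 of 19 and lower in 3, with a median of 0.45. TNFRSF10B, the death receptor DR5, was at 152, 149 and 132 CPM under HFG and 44.7, 33.7 and 34.7 CPM under halofuginol (log2 fold change 1.91 ± 0.082, adjusted p = 8.84e-18). BBC3, the BH3-only protein PUMA, was at 23.5, 30.2 and 25.1 CPM against 10.1, 9.16 and 10.2 CPM (log2 fold change 1.40 ± 0.14, adjusted p = 2.70e-09). The groups did not overlap in either. CFLAR, an inhibitor of death receptor signalling, and MCL1, a survival protein on which myeloma cells rely, also rose, by 1.71-fold and 1.2-fold (CFLAR shares 12.72% of its 31-mers), and BCL2L1, the survival protein BCL-xL, fell 1.47-fold (log2 fold change -0.56 ± 0.080, adjusted p = 1.06e-06). Of 19 targets of p53 tested, 9 were higher and 2 lower, beside 23.1% and 24.2% of all genes, with a median of 0.18. CDKN1A, the cell cycle inhibitor p21, stood low at 11.7, 13.2 and 11.4 CPM under HFG and at 3.77, 4.24 and 2.15 CPM under halofuginol (log2 fold change 1.74 ± 0.23, adjusted p = 3.00e-07).

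Plasma cell and myeloma genes were lower in 15 of 28 and higher in 5, with a median of -0.2. SDC1, the plasma cell surface proteoglycan CD138, was at 555, 559 and 573 CPM under HFG and 874, 925 and 951 CPM under halofuginol (log2 fold change -0.70 ± 0.036, adjusted p = 8.29e-16), and JCHAIN, the joining chain of polymeric immunoglobulin, fell 1.76-fold (log2 fold change -0.81 ± 0.030, adjusted p = 2.71e-19). MYC was at 346, 322 and 318 CPM against 443, 468 and 443 CPM (log2 fold change -0.46 ± 0.041, adjusted p = 2.62e-10) and IRF4, the plasma cell factor, fell (log2 fold change -0.33 ± 0.043, adjusted p = 2.65e-07). Each of these genes was lower in every HFG library. MXD1, a repressor that competes with MYC for its partner, rose 2.15-fold. PRDM1, the plasma cell repressor BLIMP1, fell 1.18-fold with the call lost in the larger fits (adjusted p = 0.0848 and 0.112). TCF3, a helix-loop-helix transcription factor, was at 549.5, 569 and 552 CPM and 571, 570.4 and 595 CPM, and the interval of its log2 fold change was -0.13 to 0.017. ABCB1, the efflux pump P-glycoprotein, was among the abundant transcripts at 2359.9, 2189 and 2250.5 CPM under HFG and 1901, 1954 and 1877 CPM under halofuginol (log2 fold change 0.25 ± 0.031, adjusted p = 1.24e-07), with adjusted p = 0.0647 in the fit of all L363-CFZr groups.

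Interferon-stimulated genes were higher in 15 of 24 and lower in 1, with a median of 0.54. The sensor IFIH1, which detects double-stranded RNA, rose 1.49-fold. AP-1 and immediate early genes were higher in 13 of 26 and lower in 1, and NF-kB genes in 9 of 15 and 1. RELB, an NF-kB subunit, was at 95.9, 114 and 103 CPM against 55.2, 50.5 and 52.7 CPM (log2 fold change 0.97 ± 0.072, adjusted p = 4.36e-12) and IER2 rose 1.82-fold. The larger fits each called 8 rises among AP-1 genes, and 5 and 6 among NF-kB genes. Over all genes they called 1300 of 11100 and 1365 of 11567 higher. Autophagy genes gave 11 higher and 1 lower of 22, led by WIPI1 and CALCOCO2, at 1.8-fold and 1.68-fold, although WIPI1 shares 27.82% of its 31-mers with other genes. Genes of mTORC1 nutrient signalling showed no shift as a list, with 6 higher and 4 lower of 25 and a median of 0.003. These shares lay near the 23.1% and below the 24.2% of all genes called higher and lower. The larger fits called 1 and 2 or 2 and 2.

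The same pair of compounds was read at 1 µM and 6 h in AMO1 cells, a myeloma line labelled WT, with both groups in one set of sample numbers of that line. There 5588 of 10810 genes (51.7%) differed, 2763 (25.6%) higher and 2825 (26.1%) lower under HFG. Across 10221 genes tested in both lines the log2 fold changes correlated at r = 0.457, and of 3154 genes called in both (64% of the L363-CFZr calls and 59.7% of the AMO1 calls on those 10221 genes) 2879 had the same direction and 275 the opposite. Genes are not independent replicates, so this is a description, and libraries of all 4 groups were prepared from polyadenylated RNA by one method. The difference between the lines, tested as an interaction, was called in 2946 of 11269 genes (26.1%), with 1522 (13.5%) more positive and 1424 (12.6%) more negative in L363-CFZr cells. Line and set coincide in this test and cannot be told apart.

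The difference between HFG and halofuginol in amino acid genes was not the same in both lines. ASNS was at 212, 214 and 205 CPM under HFG and 217, 214 and 236 CPM under halofuginol in AMO1 cells, where the groups overlapped (log2 fold change -0.079 ± 0.059, adjusted p = 0.279), and the difference between the lines was 2.24 ± 0.074 on the log2 scale (adjusted p = 4.54e-17). PSAT1 was at 230.1, 206 and 194 CPM and 205, 193 and 232 CPM in AMO1 cells, with a difference between the lines of 3.29 ± 0.11 (adjusted p = 4.54e-17). In AMO1 cells, a separate set of libraries, the levels of both genes under either compound lay between the halofuginol and the HFG levels of L363-CFZr cells. The AMO1 DMSO libraries of 6 h are of the same set, and both compounds were set against them in tests added after the data were seen, which share those DMSO libraries. Halofuginol differed from DMSO in 383 of 10593 genes (3.62%) and HFG in 5827 of 10737 (54.3%). The halofuginol count was 94 to 174 without any 1 of 5 libraries and 1410 without DMSO replicate 3. ASNS was at 128, 127 and 129 CPM under DMSO, and it was higher under halofuginol (log2 fold change 0.70 ± 0.070, adjusted p = 2.56e-06) and under HFG (log2 fold change 0.63 ± 0.072, adjusted p = 2.88e-06). PSAT1 was at 100.1, 103 and 114 CPM under DMSO and higher under halofuginol (log2 fold change 0.90 ± 0.081, adjusted p = 8.91e-07) and HFG (log2 fold change 0.90 ± 0.087, adjusted p = 5.22e-07). A difference near 0 between the compounds in AMO1 cells thus stood between levels that were both above DMSO in these genes. Of the 19 amino acid and one-carbon genes 8 were higher under halofuginol than under DMSO and 0 lower. Of the 21 ISR regulators tested 6 were higher and 0 lower, beside 3.62% of all genes called in either direction. Against the same DMSO libraries HFG gave 8 higher and 7 lower of the 19 (median log2 fold change 0.045), and 14 and 4 of the 21. Those stand beside 54.3% of all genes called in either direction.

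TRIB3 differed less between the compounds in AMO1 cells, at 250.03, 243.43 and 236.19 CPM against 169.9, 163 and 177 CPM (log2 fold change 0.52 ± 0.058, adjusted p = 1.20e-06). ATF4 was lower under HFG than under halofuginol there (log2 fold change -0.25 ± 0.050, adjusted p = 4.66e-04), as was MTHFD2 (log2 fold change -0.53 ± 0.048, adjusted p = 8.51e-08). Against DMSO neither was called under HFG (log2 fold change -0.006 and -0.084, edgeR adjusted p = 0.944 and 0.297). Both were called higher than DMSO under halofuginol (log2 fold change 0.24 and 0.44, adjusted p = 0.0216 and 9.86e-05). In the DMSO tests only ASNS and PSAT1 were followed without each library in turn, so the calls of ATF4 and MTHFD2 were not checked that way. Of 22 ISR regulators in the test between the lines 17 had a more positive difference in L363-CFZr cells and 1 a more negative one. Of 19 amino acid and one-carbon genes it was 13 and 2, beside 13.5% and 12.6% of all genes. These counts compare the difference of the compounds and not the response to HFG alone. Halofuginol itself lay above DMSO in part of these genes in AMO1 cells. Its median log2 fold change over DMSO was 0.217 in the ISR regulators and 0.196 in the amino acid and one-carbon genes. For HFG over DMSO these medians were 0.554 and 0.045. The medians of the difference between the lines were 1.14 and 1.60, and the part of halofuginol in them was not tested.

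Not all stress genes differed between the lines. ATF3 rose in AMO1 cells from 14.1, 13 and 17.4 to 188, 198 and 181 CPM, and the difference between the lines had an interval of -0.71 to 0.47 (adjusted p = 0.804). DDIT3 rose in both, by 1.99 ± 0.082 in L363-CFZr and 1.53 ± 0.089 in AMO1 cells, with a difference of 0.47 ± 0.13 (adjusted p = 0.0107). HSPA8 fell in both, to 440.1, 487 and 445 from 1325, 1327 and 1189.9 CPM in AMO1 cells, and the interval of the difference was -0.24 to 0.041. Of 20 heat shock genes 9 had a more negative difference in L363-CFZr cells and 2 a more positive one. Over all genes 12.6% had a more negative and 13.5% a more positive difference in L363-CFZr cells. EPRS1 was at 421, 404 and 386 CPM against 368, 380.0 and 379 CPM in AMO1 cells (log2 fold change 0.10 ± 0.051, adjusted p = 0.105), 0.50 ± 0.061 less than in L363-CFZr cells (adjusted p = 1.44e-06). The p53 targets went apart, with 1 of 20 higher and 16 lower in AMO1 cells and 14 of 20 more positive in L363-CFZr cells, 0 more negative. In AMO1 cells 25.6% of all genes were higher and 26.1% lower. CDKN1A was at 65.5, 67.9 and 56.4 CPM under HFG and 359.5, 407 and 430.2 CPM under halofuginol in AMO1 cells, the reverse of its order in L363-CFZr cells. Replication-dependent histones rose in 18 of 18 tested in AMO1 cells with a median of 2.49, and 9 of 18 had a more negative difference in L363-CFZr cells. Glycolysis and hypoxia genes fell in both lines, in 25 of 28 in AMO1 cells with a median of -1.07, and in 23 of 29 the difference was more positive in L363-CFZr cells, which is a smaller fall where both fell.

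**Figure D4:**
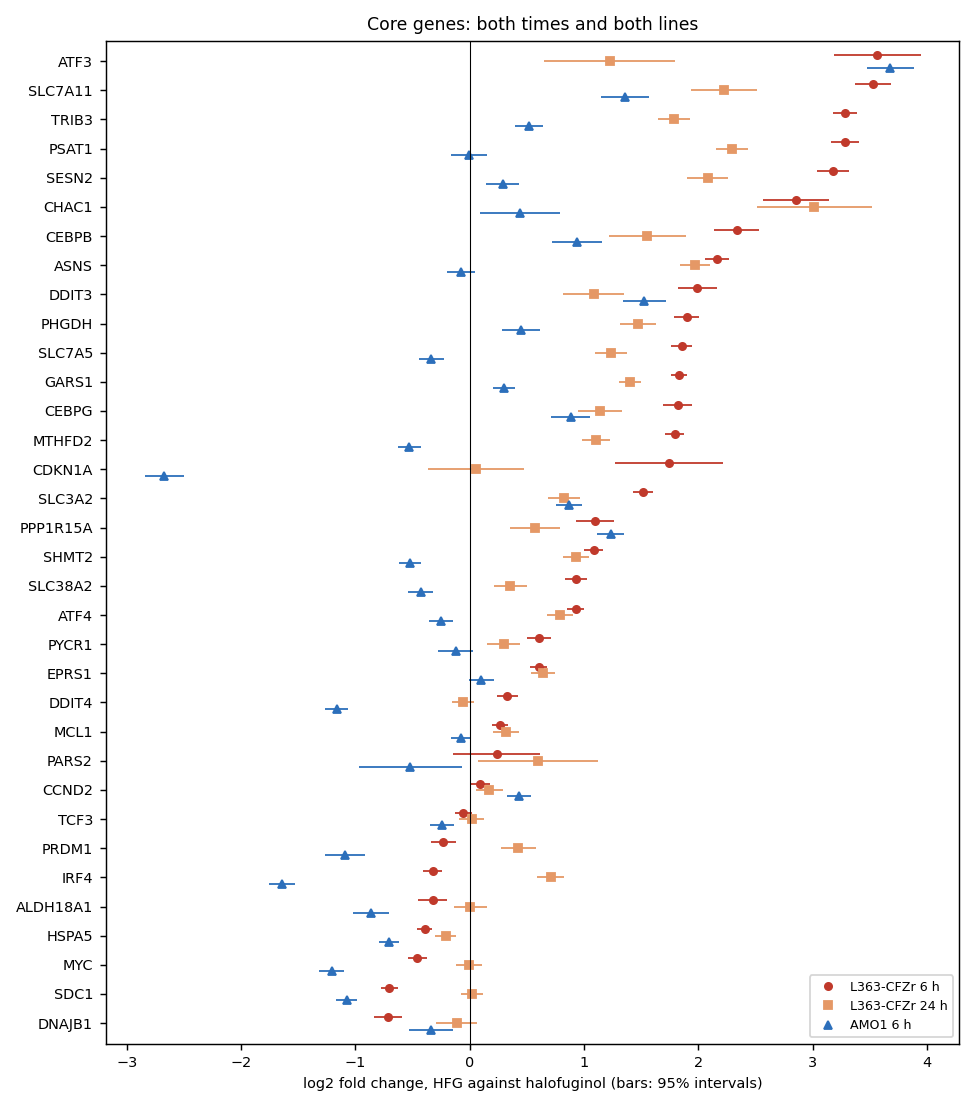
Log2 fold change of HFG against halofuginol for the 34 core genes in L363-CFZr cells at 6 h (red circles) and 24 h (orange squares) and in AMO1 cells at 6 h (blue triangles), with 95% intervals as bars. In L363-CFZr cells ASNS and PSAT1 lie at 2.16 and 3.28 at 6 h and at 1.97 and 2.29 at 24 h, while in AMO1 cells, where both compounds gave levels above DMSO, they lie near 0.

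At 24 h in L363-CFZr cells the compounds differed in 2280 of 10408 genes (21.9%), 998 (9.59%) higher and 1282 (12.3%) lower under HFG. Samples of 24 h and 6 h were of one set. The study's methods, which name AMO1 cells at this step, give different storage before extraction for 6 h and 24 h samples. If this held for L363-CFZr cells, time and storage cannot be told apart. Across 10288 genes the log2 fold changes of both times correlated at r = 0.49, and 1532 genes were called at both (31% of the 6 h calls and 67.5% of the 24 h calls on those 10288 genes), 1400 of them in the same direction. The change between the times, again an interaction, was called in 2111 of 10659 genes (19.8%), 895 (8.4%) more positive and 1216 (11.4%) more negative at 6 h.

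ISR regulators were still higher under HFG at 24 h in 15 of 20, with a smaller median of 0.93, and 16 of 21 had the more positive difference at 6 h. Over all genes these shares were 9.59% and 8.4%. TRIB3 was at 253, 263 and 269.8 CPM under HFG and 77.6, 76.4 and 73.3 CPM under halofuginol at 24 h (log2 fold change 1.79 ± 0.065, adjusted p = 2.59e-11), 1.47 ± 0.078 less than at 6 h (adjusted p = 2.49e-11). SLC7A11 likewise dropped, from 3.53 ± 0.077 at 6 h to 2.22 ± 0.13 at 24 h. For ASNS the values at 24 h were 284, 285 and 292 CPM and 72.6, 75.8 and 71.2 CPM, and the change between the times had an interval of 0.009 to 0.32 (adjusted p = 0.13). ATF4, CHAC1 and EPRS1 were also not called between the times (adjusted p = 0.233, 0.722 and 0.531). Several falls of 6 h were small or gone at 24 h. HSPA8 was at 789, 827 and 838 CPM against 996, 986 and 1022 CPM at 24 h (log2 fold change -0.29 ± 0.043, adjusted p = 1.36e-04), SDC1 differed by 0.020 ± 0.047, and IRF4 was higher under HFG, at 660.4, 679 and 679.9 CPM against 437, 421 and 379 CPM (log2 fold change 0.71 ± 0.055, adjusted p = 1.96e-07). Ribosomal proteins and proteasome subunits had a more negative difference at 6 h in 77 of 80 and 21 of 31, beside 11.4% of all genes. The medians were small, at -0.37 and -0.30. Larger fits, in which every ribosomal protein call at 6 h was lost, were not run for this test between the times. G2/M genes went the other way, with 24 of 25 lower under HFG at 24 h and a median of -0.76, and 23 of 25 had the more negative difference at 24 h. For all genes these shares were 12.3% and 8.4%.

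The DMSO libraries of the line give the level without compound. At 24 h, where DMSO is of the same set, halofuginol and DMSO were compared in a test added after the data were seen, and 0 of 10531 genes (0%) were called by edgeR, with 410 at an unadjusted p under 0.05 and a smallest adjusted p of 0.659. The interval of the log2 difference of halofuginol from DMSO was -0.13 to 0.45 for TRIB3, -0.18 to 0.37 for ASNS and -0.20 to 0.50 for PSAT1, within 2-fold on either side. In the same fit the 80 ribosomal proteins had a median of 0.45 and the 31 proteasome subunits a median of 0.33, all above 0 and with 0 called, which are larger in size than the medians of these lists between HFG and halofuginol at 6 h. This comparison shares the halofuginol libraries with that of HFG at 24 h. At 6 h, where treatment and set cannot be told apart, TRIB3 was at 69.7 to 73.9 CPM in the 3 DMSO libraries, 58.3 to 58.8 CPM under halofuginol and 541 to 589.5 CPM under HFG, on a scale common to the 30 libraries of the line. PSAT1 was at 49.6 to 54.1, 48.7 to 62.6 and 522 to 588 CPM in the same order, and HSPA8 at 1714 to 1839, 1960.0 to 2164 and 643 to 679 CPM. In all 3 genes the halofuginol libraries lay nearer to the DMSO libraries than to the HFG libraries. Halofuginol and HFG were read at 1 dose each, so these values compare the compounds at 1 µM and not their potency. In the study's own binding assay halofuginol bound human prolyl-tRNA synthetase more weakly than HFG.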

How the data were processed

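Polyadenylated RNA of the 6 libraries was sequenced in pairs from stranded libraries. The authors quantified reads with kallisto over 31-mers and deposited counts per gene. The study's methods name GRCh38 and the submitters' processing notes hg19, and neither the kallisto version nor the annotation nor the step from transcripts to genes is given in the sources used here. The study's methods state for AMO1 cells that 6 h samples were frozen overnight before extraction and 24 h samples kept on ice. This storage was taken to hold for L363-CFZr cells.

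Genes were kept by filterByExpr (minimum count 10, minimum total 15) and tested on the deposited counts with the quasi-likelihood test of edgeR 4.0.16 in R 4.3.3, with TMM scaling and Benjamini-Hochberg adjustment over all tested genes at 0.05. Standard errors were the log2 fold change over the square root of F. Tests between lines and times were interaction terms over 12 libraries. DESeq2 1.42.0, other scalings, filters, a GC offset, a replicate block, larger fits and leaving out each library were alternatives. On data simulated for the 6 h comparison over 10581 genes, 25 of 50 genes changed 1.25-fold were recovered. Of those changed 1.5-fold 41 of 50 were recovered and of those changed 2-fold 49 of 50. There were 12 false calls among 177. The simulation held no compound difference beyond 50 genes at each fold, whereas 47.3% of genes were called in the data. These rates therefore describe that setting and not the real comparison.

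Comparisons with DMSO were added after the data were seen. Genes named were the 34 core genes, the 10 largest rises and falls (mean of at least 5 CPM, no overlap), the 2 members of each list with the smallest adjusted p in each direction, and the 5 largest differences of each interaction. ESRP1 and the exceptions in a list were named after their values were seen. Some genes that the rule selects are not reported here. The comparison, lists and tests were chosen with earlier results of these data known. Coordinates were from GENCODE 44, which holds 19299 of 20167 gene IDs. Shared 31-mers were counted over its transcripts.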

Additional observations from a re-analysis of the deposited data

Results flagged for a closer look

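The interactions put 10 genes forward for a closer look, 5 between the lines and 5 between the times, each as the log2 fold change of HFG against halofuginol in one setting minus that in the other. Between L363-CFZr and AMO1 cells at 6 h, CDKN1A differed by 4.41, with HFG below halofuginol in AMO1 cells (log2 fold change -2.67) and above it in L363-CFZr cells (1.74), and SNTB1 by 4.198. SNTB1 was at 37.5, 27.3 and 28.4 CPM under HFG and 24.7, 30.5 and 34.04 CPM under halofuginol in AMO1 cells, where the groups overlapped. BCAT1 differed by 7.501, and it stood at 14.5 to 16.8 CPM under HFG and 49.6 to 59.2 CPM under halofuginol in AMO1 cells, the reverse of its order in L363-CFZr cells. GDF15, a stress-induced cytokine, differed by 4.935 and JAKMIP1 by 4.776, but in L363-CFZr cells these had 28 counts under HFG against 1 under halofuginol (ratio 37.3, 95% counting interval 6.17 to 1525.3) and 3 against 1 (ratio 4, interval 0.32 to 209.8).

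Between 6 h and 24 h in L363-CFZr cells, SCN4A, a sodium channel, differed by 2.462, with 6.72, 4.41 and 6.11 CPM under HFG against 0.944, 0.339 and 1.61 CPM under halofuginol at 6 h and overlapping groups at 24 h. AKAP12, a scaffold protein, differed by 2.652 and HGH1 by 3.704. AKAP12 stood at 1.01 to 1.94 CPM under HFG and 7.34 to 10.01 CPM under halofuginol at 24 h, and HGH1 at 0, 0 and 1.94 CPM against 9.07, 13.8 and 9.39 CPM, while the groups overlapped at 6 h in both genes. NARS2 and GXYLT1 differed by 2.504 and 2.561. In both, halofuginol replicate 3 at 24 h stood apart, at 1504 CPM for NARS2, where the other halofuginol libraries were at 175.5 and 102 CPM, and at 726 CPM for GXYLT1, where they were at 87.9 and 49.5 CPM. Both genes were also scattered in the HFG libraries of AMO1 cells at 6 h. There NARS2 was at 99.5, 1057 and 454 CPM and GXYLT1 at 93.9, 416 and 179 CPM.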

How the results depend on the processing

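The 5000 genes called at 6 h became 294 with a 2-fold limit added, 2738 when all L363-CFZr groups shared one fit (2717 of the 5000) and 2618 with the groups of the same set (2598 of the 5000), and 0 of the shared genes changed sign. DESeq2 called 3635 at 6 h, all of them among the 5000, and 1408 in place of 2280 at 24 h. The other settings gave 4688 to 4999 at 6 h, and the counts without each library in turn were 4373 to 4748 at 6 h, 1608 to 2193 at 24 h, 4795 to 5528 in AMO1 cells, 2509 to 3047 between lines and 1729 to 2237 between times. With the replicate block the counts were 4913, 2455, 5469, 2836 and 2098 in that order of comparisons, and 4607 with the block and a GC offset at 6 h. Deviations of same-numbered libraries at 6 h correlated at 0.01, 0.043 and 0.032, and those of unlike-numbered libraries at -0.054 to 0.019. At 24 h the same-numbered values were -0.002, 0.074 and 0.092 and in AMO1 cells 0.06, -0.014 and 0. As deviations from means of 3 libraries, these values cannot tell whether replicate numbers pair the samples. Of 1949 values of 130 named genes over the settings of the 6 h comparison in L363-CFZr cells, 1872 kept the side of the threshold, 75 lost the call and 2 gained it. Named genes were not followed this way at 24 h, in AMO1 cells, between lines or between times. Direction reversed in 0 values where either fit called the gene. Changes of sign where neither fit called the gene were not counted. Among those lost were ABCB1, DDIT4, PRDM1, RPL7A, RPS15 and SLC7A6. Without each library in turn, HFG against DMSO in AMO1 cells gave 4946 to 5653 calls in place of 5827, and halofuginol against DMSO gave 94 to 1410 in place of 383, with ASNS and PSAT1 called each time. Calls under 1.5-fold, 77.5% of those at 6 h, are nearest to the limit that 3 libraries a group and this depth set.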
